A study of Mus musculus with 3 samples.

Results

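The comparison described here set the left ventricle of mice labelled Egln1/Hif2aTie2Cre against that of Egln1Tie2Cre mice, to see what differs in the heart when Hif2a is lost together with Egln1. Its members were all genes whose FPKM averaged 1 or more over the 2 libraries, where FPKM is the number of sequenced fragments scaled by transcript length and by library size. Of the 14894 genes that the authors' table for this pair lists, 11999 passed, and 2895 did not and were left out; the 3 tables of the series hold 15503 genes together. Genes were described by family. Pseudogenes, and coding genes with a near-identical sequence at another place, here called a copy, were kept apart from the 9638 coding genes that have none.

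The study measured messenger RNA in the left ventricle of C57BL6J mice of 3 genotypes. Egln1 floxed mice carry the conditional allele and are the controls, Egln1Tie2Cre mice lose Egln1 wherever Cre recombinase is driven by the Tie2 promoter, and Egln1/Hif2aTie2Cre mice are labelled as lacking Egln1 and Hif2a by the same Cre. Each genotype is a pool of RNA from 3 mice, sequenced as 1 library, so no value here has a replicate check, no test or error was possible, and differences are given as sizes only. The age and sex of the mice are not in the labels. Tie2 is active in endothelial cells and in blood-forming cells, so a whole ventricle mixes cells in which the alleles can be deleted with cardiomyocytes, fibroblasts and other cells in which they are kept. Sequencing depth is unknown because FPKM values do not keep read numbers.

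Egln1 encodes PHD2, the prolyl hydroxylase that uses oxygen to mark the alpha subunits of hypoxia-inducible factors (HIF) for ubiquitination by the VHL complex and for degradation. When PHD2 is absent, HIF1 alpha and HIF2 alpha accumulate, pair with ARNT and bind hypoxia response elements near target genes. HIF2 alpha, the product of Epas1 (Hif2a), is abundant in endothelium, where its targets include genes of vessel growth and vascular tone, whereas many enzymes of glycolysis are HIF1 targets.

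Throughout, "higher" and "lower" describe the library labelled Egln1/Hif2aTie2Cre relative to the Egln1Tie2Cre library. Where 3 FPKM values follow each other, they stand for the floxed library, the Egln1Tie2Cre library and the library labelled Egln1/Hif2aTie2Cre, in that order. Log2 ratios were taken on FPKM + 1, which understates the difference of low genes, and folds are plain ratios of FPKM. The targeted genes were read first. Egln1 had 129.5, 95.7 and 129 FPKM, so the library labelled as lacking it lay at the floxed level, against that part of its label. Epas1 had 77.4, 65.0 and 54.5 FPKM and was 1.19-fold lower, the direction the label gives. Its log2 ratio of -0.25 lay within the quartiles of all coding genes without a copy (-0.29 and 0.19), so this value does not check the label. A deletion in endothelial cells is only a part of whole-ventricle FPKM, and every direction given below rests on that library's label.

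The ventricular muscle markers that were measured were abundant in both libraries. Ryr2, another marker of ventricular muscle, is not in the table for this pair. Absence of a gene from it therefore does not show that the gene is not expressed. Of the markers of other tissues, Sftpc, Alb and Myh4 (lung, liver and fast skeletal muscle) are not in the table for this pair, and Mylpf, a light chain of fast skeletal muscle, had 1.48 and 1.61 FPKM in the Egln1Tie2Cre library and the library labelled Egln1/Hif2aTie2Cre. Transcripts of both sexes were present in each pool, at different levels. The X-inactivation transcript Xist had 16.5, 18.9 and 30.2 FPKM, while the Y-linked genes Ddx3y (11.4, 8.73 and 5.59), Uty (3.60, 2.33 and 1.31) and Eif2s3y (19.2, 27.0 and 17.3) were all lower. The part of pool sex in the differences below was not tested.

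The large ratios differed in direction between gene classes. Over all 11999 genes, 760 (6.33%) were higher and 630 (5.25%) lower by 2-fold or more, with a median log2 ratio of -0.02. Of 57 pseudogenes with -ps in their symbol, 50 (87.7%) were lower and 1 (1.75%) higher by 2-fold or more, with a median log2 ratio of -4.74. Of 223 other pseudogenes, 168 (75.3%) were lower and 24 (10.8%) higher. In the library labelled Egln1/Hif2aTie2Cre, 42 of the 57 and 145 of the 223 had less than 1 FPKM. In the Egln1Tie2Cre library, 3 and 14 did. Most pseudogenes thus passed the filter only through the Egln1Tie2Cre library, and their shares of lower genes are partly set by that filter. Coding genes with a copy went the other way, with 397 of 1519 (26.1%) higher and 30 (1.97%) lower by 2-fold or more. Where no copy was found, 261 of the 9638 coding genes (2.71%) were higher by that much and 315 (3.27%) lower, the median log2 ratio was -0.05, and the quartiles were -0.29 and 0.19.

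**Figure D1:**
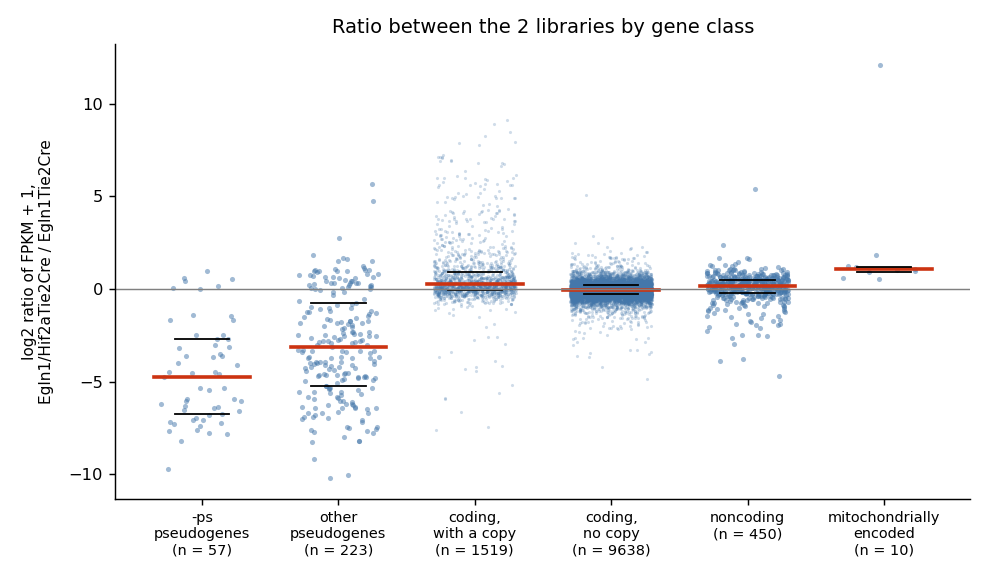
Log2 ratio of FPKM + 1, library labelled Egln1/Hif2aTie2Cre over Egln1Tie2Cre library, for each gene (points) of 6 gene classes, with the median in red and the quartiles in black. Pseudogenes lie far below 0 (median -4.74 for the 57 with -ps symbols), and most passed the filter only through the Egln1Tie2Cre library. Coding genes with a copy reach above 5, and coding genes without a copy centre on -0.05.

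The floxed library showed which of the 2 libraries stood apart for copies. The median FPKM of the 57 -ps pseudogenes was 0.445, 44.0 and 0.337, so the Egln1Tie2Cre library was high and the others were both low. The floxed median leaves out 10 pseudogenes with no floxed value. For 47 pseudogenes whose parent gene was also measured, the pseudogene took a median of 0.201%, 79.0% and 0.148% of the summed FPKM of the pair. Some of the 47 lack a floxed value and are left out of the floxed figures, and some share a parent gene. The pseudogene took more than 50% in 35 pairs in the Egln1Tie2Cre library, and in 0 of the measured pairs in each of the others. In 40 of the 47 pairs the pseudogene was at least 2-fold lower while its parent was at least 2-fold higher. Only pseudogenes that passed the filter were paired, so these counts carry the limit given above. The summed FPKM of the pair was within 2-fold between the 2 libraries in 30 pairs, with a median log2 ratio of the sum of 0.68.

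Fabp3, the fatty acid binding protein of heart muscle (chromosome 4), and its processed pseudogene Fabp3-ps1 (chromosome 10) show how alike such sequences are. They differ at 3 of 399 aligned coding bases, and bases 225 to 344 of the coding sequence, a stretch with 2 of the differences, are printed with the differing bases in capitals. Rpl38, a protein of the large ribosomal subunit (chromosome 11), and Rpl38-ps2 (chromosome 6) have no difference over 210 coding bases, so their first 90 bases are printed without capitals. Both stretches come from the GENCODE transcripts of GRCm38.
Fabp3: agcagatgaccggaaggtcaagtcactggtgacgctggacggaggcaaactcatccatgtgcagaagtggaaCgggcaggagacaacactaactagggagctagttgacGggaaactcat
Fabp3-ps1: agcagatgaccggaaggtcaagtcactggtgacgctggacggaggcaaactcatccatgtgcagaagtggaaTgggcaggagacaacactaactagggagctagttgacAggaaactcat
Rpl38: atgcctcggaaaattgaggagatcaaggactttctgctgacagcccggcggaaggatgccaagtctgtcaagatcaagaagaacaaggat
Rpl38-ps2: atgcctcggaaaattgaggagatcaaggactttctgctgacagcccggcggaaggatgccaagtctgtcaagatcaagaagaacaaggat

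Fabp3 had 4115, 315 and 5047 FPKM, and Fabp3-ps1 had 2.27, 2449 and 1.93 FPKM. Rpl38 had 394, 19.3 and 711 FPKM, and Rpl38-ps2 had 0.481, 392 and 0.358. In both pairs the Egln1Tie2Cre library carried its FPKM on the pseudogene and the other two libraries carried it on the parent. Values of such genes are therefore uncertain as expression levels, since a read that fits several places can be assigned to any of them, and they are not read as differences between genotypes here.

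**Figure D2:**
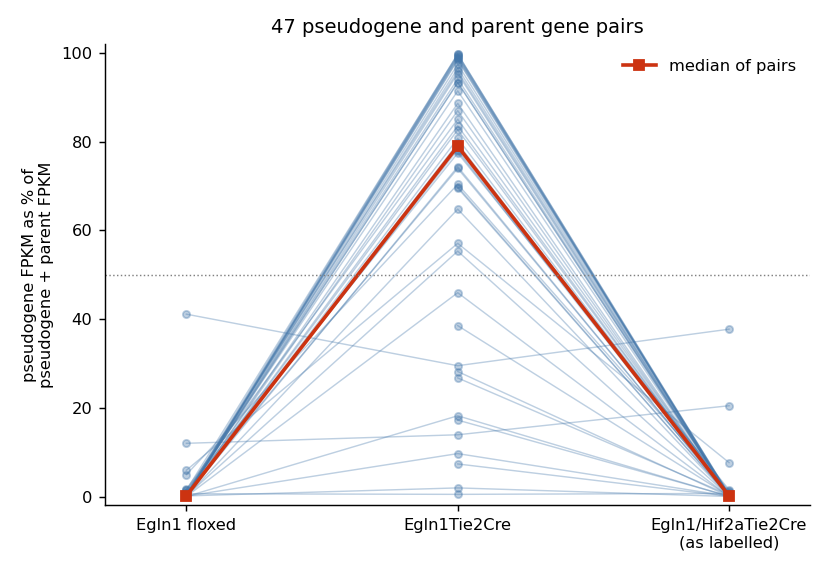
FPKM of the pseudogene as a percentage of the summed FPKM of pseudogene and parent gene, for 47 pairs (thin lines) in the 3 libraries, with the median of the pairs in red and a dotted line at 50%. The median is 79.0% in the Egln1Tie2Cre library and below 1% in both other libraries. Some pairs have no floxed value.

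Ribosomal protein genes were the extreme case. The 47 Rpl genes with a copy had a median log2 ratio of 5.13 and 42 were at least 2-fold higher. All 14 Rpl pseudogenes that passed the filter were lower by 2-fold or more (median -6.38). The 29 Rps genes with a copy had a median of 3.66. Rpl23a, of the large ribosomal subunit, had 658, 0.611 and 905 FPKM, and Rps29, of the small subunit, had 954, 2.196 and 1511.

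Some enzymes of glycolysis and of heart metabolism with a copy showed the same direction. Of 10 glycolytic enzymes kept apart from those without a copy, 4 were higher and 0 lower by 2-fold or more (median log2 ratio 0.76). Of 6 such genes of the fatty acid list, 5 were higher and 0 lower (median 1.47). Gapdh, a glycolytic enzyme with many processed copies, had 2058, 4.98 and 2110 FPKM. Pgk1 and Eno1, glycolytic enzymes further along the pathway, had 247, 31.6 and 282 FPKM and 141, 26.6 and 199.7 FPKM. Hadhb, the beta subunit of the mitochondrial trifunctional protein, had 805, 63.4 and 962. For each of these the Egln1Tie2Cre library was the low one.

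Mitochondrially encoded genes were also higher. Of 10 kept, 6 (60.0%) were higher by 2-fold or more and 0 lower (median 1.07). The copy search found a near-identical nuclear or predicted sequence for 7 of them. Of the 3 without one, mt-Nd1, a subunit of complex I, had 26341, 18420.0 and 39439.5 FPKM, and the ribosomal RNAs mt-Rnr1 and mt-Rnr2 had 4936, 3439 and 8021 FPKM and 8395, 5979.6 and 13389.9 FPKM. Each of the 3 was over 2-fold higher. The gene mt-Nd3, another subunit of complex I, had 21464, 9.70 and 46805 FPKM, but it is uncertain because it has a copy of 99.7% identity.

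Exon number moved with the ratio among coding genes without a copy. The median log2 ratio was 0.28 for 182 genes with 1 exon, 0.28 for 403 with 2, 0.17 for 1175 with 3 to 4, 0.00 for 3035 with 5 to 9, -0.14 for 3233 with 10 to 19 and -0.23 for 1610 with 20 or more. The Egln1Tie2Cre library against the floxed library ran the opposite way, from -0.27 to 0.10. The library labelled Egln1/Hif2aTie2Cre against the floxed library ran from 0.03 to -0.15. For this reason the median of each gene list is also given below after centring on genes of like transcript length and exon number, where that moves it across 1.2-fold (0.26 on the log2 scale), the size at which a list is described as apart from the rest.

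**Figure D3:**
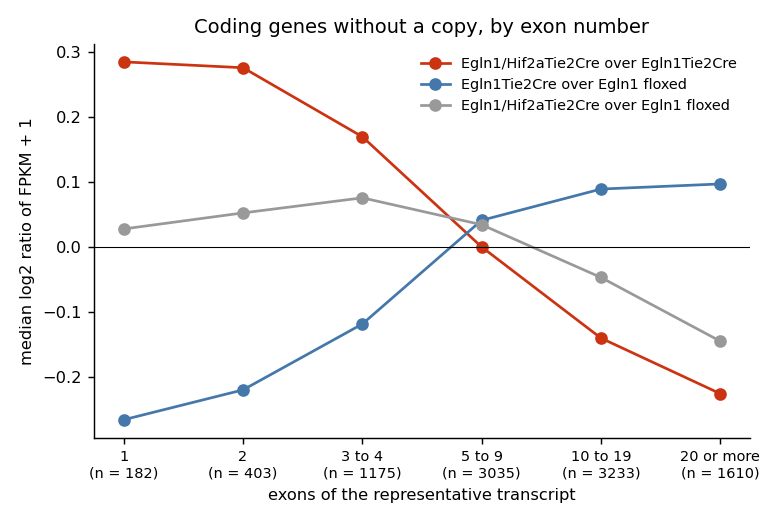
Median log2 ratio of FPKM + 1 of coding genes without a copy, grouped by exon number, for the 3 pairs of libraries. The red line, library labelled Egln1/Hif2aTie2Cre over Egln1Tie2Cre library, goes from 0.28 at 1 exon to -0.23 at 20 or more exons.

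The authors' deposited table gives a q-value per gene, which compares 2 libraries and not 2 genotypes. At q of at most 0.05 it holds 78 higher and 7 lower genes, of which 77 of the higher and 1 of the lower are coding genes with a copy. Only 7 coding genes in which no copy was found reached that q in the authors' deposited table. Aqp1, a water channel of microvessels, was the only higher one (q = 0.0112). The lower ones were Bdh1 and Nppa (both q = 0.0112), Acer2, Myot and Cyfip2 (all q = 0.0301) and Fmo2 (q = 0.0387). Cyfip2, a regulator of actin assembly that overlaps Fndc9, had 38.6, 20.4 and 5.03 FPKM. Acer2, an alkaline ceramidase of the Golgi, had 7.43, 28.9 and 3.81 FPKM, and Fmo2, a flavin monooxygenase, had 20.5, 46.9 and 9.59. For Acer2, Fmo2, Bdh1 and Cyfip2 the library labelled Egln1/Hif2aTie2Cre lay below the floxed library too, whereas Nppa and Myot lay 1.60-fold and 1.28-fold above it.

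The gene lists were then read over members without a copy, beside the background of all 9638 such genes, of which 8.37% were higher and 11.3% lower by 1.5-fold or more, and 43.8% lay above a log2 ratio of 0. The lists of more than 3 members furthest above the background median of -0.05 were interferon-induced genes and macrophage markers. The furthest below were cardiac stress genes and antioxidant genes, along with 2 lists of only 4 members each, epicardial and erythroid or platelet markers. Schwann and neuronal markers, with 3 members, had a median of 0.30, and of 0.11 once centred on genes of like length and exon number.

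**Figure D4:**
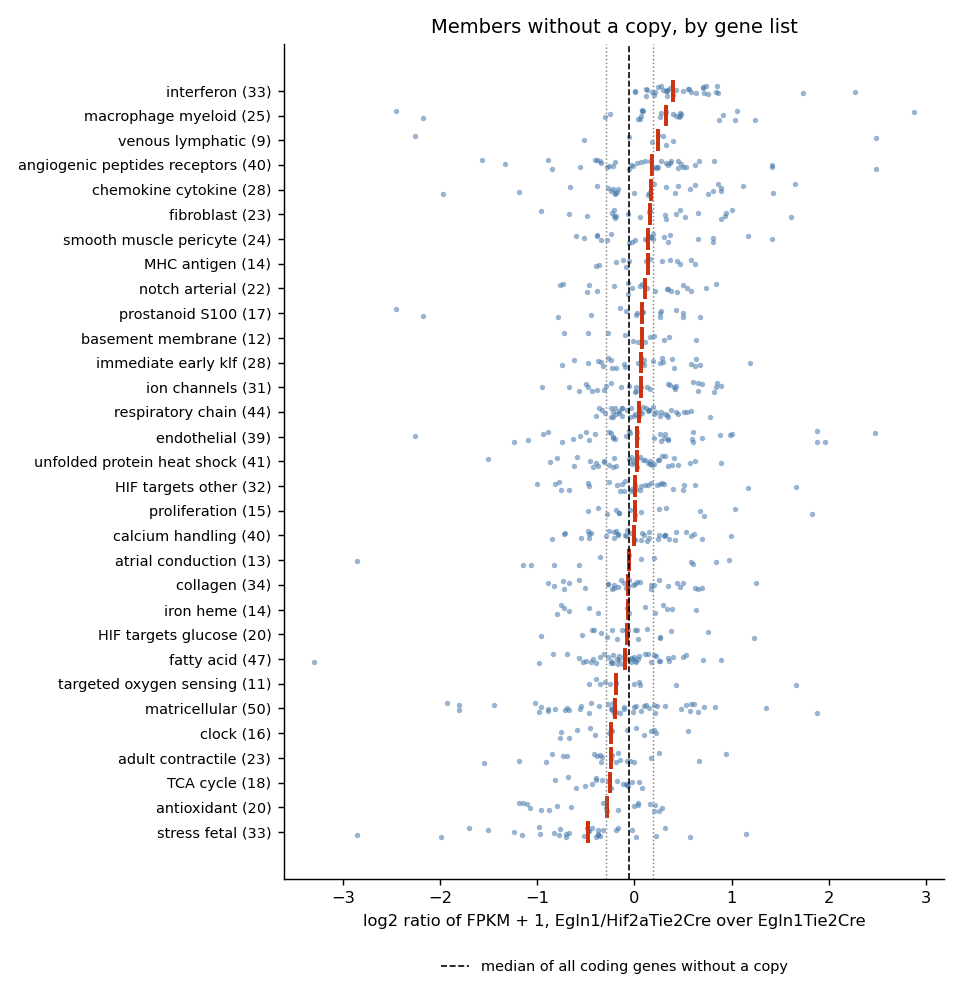
Log2 ratio of FPKM + 1, library labelled Egln1/Hif2aTie2Cre over Egln1Tie2Cre library, of the members without a copy (points) of each list with at least 9 of them, with the list median in red and the number of members in brackets. The dashed line is the median of all coding genes without a copy and the dotted lines are their quartiles; the interferon list lies at 0.40 and the stress list at -0.47.

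Genes of the oxygen-sensing machinery differed little. Of 16 listed, 14 were kept and 11 had no copy, and of these 1 was higher and 0 were lower by 1.5-fold or more (median log2 ratio -0.19). Among the hydroxylases, Egln2 (27.5, 24.97 and 25.9 FPKM, overlapping Cyp2t4), P4htm (5.04, 7.51 and 6.47) and the asparaginyl hydroxylase Hif1an (18.2, 14.1 and 11.2) were all within 1.5-fold. Egln3, a HIF prolyl hydroxylase that is itself a HIF target, was the exception at 25.2, 19.9 and 65.3 FPKM, 3.28-fold higher. The subunits Hif1a (19.3, 20.1 and 15.01, overlapping Gm49321) and Arnt (17.6, 18.4 and 14.2) were lower by 1.34-fold and 1.29-fold. Vhl, which recognises hydroxylated HIF, had 4.27, 3.68 and 3.65 FPKM, and its scaffold Cul2 had 17.9, 20.5 and 14.6. Cited2, which competes with HIF for a coactivator, had 19.8, 14.9 and 15.6. The other VHL complex members Tceb1, Tceb2 and Rbx1 have copies, and their values of 71.9, 124 and 18.3 FPKM in the Egln1Tie2Cre library and 76.0, 256 and 45.0 in the library labelled Egln1/Hif2aTie2Cre are uncertain.

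HIF targets of glucose metabolism were divided. Of the 20 without a copy, 2 were higher and 2 lower by 1.5-fold or more, 9 lay above and 11 below a ratio of 0, and the median was -0.07. Slc16a3, which exports lactate from glycolytic cells, had 0.875, 7.43 and 18.7 FPKM and was 2.52-fold higher. Pdk4, which restrains the oxidation of pyruvate, had 125, 55.03 and 93.9 FPKM and was 1.71-fold higher. Hk1, a hexokinase, had 59.7, 90.3 and 45.7 FPKM and was 1.97-fold lower. The glucose transporters Slc2a1 (8.93, 18.1 and 13.3) and Slc2a3 (0.528, 1.56 and 0.764) were also on the low side. Slc16a3 was thus highest in the library labelled Egln1/Hif2aTie2Cre, whereas the glucose transporters were highest in the Egln1Tie2Cre library.

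The other HIF targets lay near the background as well. Of 32 without a copy, 3 (9.38%) were higher and 5 (15.6%) lower by 1.5-fold or more, and the median was 0.01. Beside Egln3, the higher ones included Pnp, a purine salvage enzyme (12.2, 4.41 and 11.1 FPKM), though it overlaps the related gene Pnp2 in the annotation and is uncertain. Lower were Ankrd37 (7.34, 19.8 and 9.39, overlapping Lrp2bp and Ufsp2), the stress-responsive Ndrg1 (15.3, 33.2 and 19.01) and the transcriptional repressor Bhlhe40 (18.3, 38.6 and 22.5). Each of these 3 was highest in the Egln1Tie2Cre library. Vegfa, the main endothelial growth factor, named here after its values were seen, had 142, 220.5 and 311 FPKM and was 1.41-fold higher.

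Promoters of the 4 HIF targets without a copy that had the largest ratios in either direction are printed so that their hypoxia response element letters can be read. They run from 250 bases before to 50 after the transcription start and come from RefSeq. Capitals mark ACGTG and GCGTG, the core letters that HIF binds, on either strand (CACGT and CACGC on the printed strand), where overlapping matches were counted separately.
Egln3 promoter, GRCm38.p6, chr12:54203825-54204124, minus strand: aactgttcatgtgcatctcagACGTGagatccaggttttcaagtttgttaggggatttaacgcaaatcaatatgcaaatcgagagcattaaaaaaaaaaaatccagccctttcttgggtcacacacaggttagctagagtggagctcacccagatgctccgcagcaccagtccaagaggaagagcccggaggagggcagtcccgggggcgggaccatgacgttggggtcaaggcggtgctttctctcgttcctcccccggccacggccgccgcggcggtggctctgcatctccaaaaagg
Slc16a3 promoter, GRCm38.p6, chr11:120948817-120949116, plus strand: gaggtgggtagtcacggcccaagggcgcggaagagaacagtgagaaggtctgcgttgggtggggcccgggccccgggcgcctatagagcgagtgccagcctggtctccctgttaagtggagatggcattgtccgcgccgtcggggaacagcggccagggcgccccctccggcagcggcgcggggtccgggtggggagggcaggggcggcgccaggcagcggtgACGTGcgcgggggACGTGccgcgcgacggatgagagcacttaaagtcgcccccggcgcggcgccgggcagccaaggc
Pnp promoter, GRCm38.p6, chr14:50944053-50944352, plus strand: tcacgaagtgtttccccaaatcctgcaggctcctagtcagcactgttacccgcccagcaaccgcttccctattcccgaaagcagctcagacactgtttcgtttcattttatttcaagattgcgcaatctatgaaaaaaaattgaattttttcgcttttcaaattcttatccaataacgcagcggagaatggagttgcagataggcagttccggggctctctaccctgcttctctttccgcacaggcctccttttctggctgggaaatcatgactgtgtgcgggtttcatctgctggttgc
Ankrd37 promoter, GRCm38.p6, chr8:45999801-46000100, minus strand: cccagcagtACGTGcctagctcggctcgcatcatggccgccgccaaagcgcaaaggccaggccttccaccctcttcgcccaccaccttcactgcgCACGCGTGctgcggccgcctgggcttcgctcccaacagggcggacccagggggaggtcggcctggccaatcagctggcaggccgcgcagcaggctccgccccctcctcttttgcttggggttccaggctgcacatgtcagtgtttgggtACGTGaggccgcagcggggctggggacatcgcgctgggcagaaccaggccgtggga

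Egln3 held 1 match, 229 bases before its start, and Slc16a3 held 2, at 27 and 14 bases before it. Ankrd37 held 4, of which 2 overlap, and Pnp held 0. The letters are common: 43.8% of all 32851 promoters in the RefSeq table hold at least 1 match, as do 64.2% of the promoters of kept genes. Of 67 kept HIF targets in both lists, 55 had a promoter in the table and 43 of these (78.2%) held a match. Among coding genes without a copy, so did 95 of 184 promoters (51.6%) of the 2-fold higher genes. For the 2-fold lower genes it was 132 of 233 (56.7%). A match is a description of the sequence and not a measured binding site.

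Cardiac stress genes were lower as a group. Of 33 fetal and stress genes without a copy, 28 lay below a log2 ratio of 0, 16 (48.5% against a background of 11.3%) were lower and 2 higher by 1.5-fold or more, with a median of -0.47 and of -0.56 after centring by length and exon number. Nppa, the atrial natriuretic peptide gene, had 160.2, 1858 and 256 FPKM and was 7.26-fold lower. Nppb, which encodes the B-type peptide and lies beside Nppa, did not follow it, with 157, 576 and 568 FPKM (named after its values were seen). Myot, a Z-disc protein, had 14.1, 74.7 and 18.1 FPKM and was 4.13-fold lower. Ankrd1, a stretch-responsive partner of titin, had 485, 1688 and 754 FPKM and was 2.24-fold lower.

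Z-disc and stretch genes, which tie the sarcomere to mechanical signals, were the largest role in that list. Of 15 such genes without a copy, 13 lay below 0 and 8 were lower by 1.5-fold or more (median -0.67). Nrap, an anchor of actin at the intercalated disc that overlaps Habp2, had 143, 273 and 115 FPKM. Among 10 signalling genes of the list, Gdf15, a stress cytokine, had 0.668, 4.99 and 1.11 FPKM and Uchl1, a deubiquitinase, had 4.98, 11.8 and 2.93. In each of these the Egln1Tie2Cre library was the high one. Myh7, the slow myosin heavy chain, had 89.95, 330.4 and 25.04 FPKM (q = 0.0112 in the authors' deposited table), but it shares long near-identical stretches with its neighbour Myh6 and is uncertain.

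Sarcomere genes of the adult ventricle leaned the same way by less. Of 23 without a copy, 19 lay below 0, 6 (26.1%) were lower and 2 higher by 1.5-fold or more, and the median was -0.24. The M-band protein Myom2 had 329, 747 and 255 FPKM (2.93-fold lower), the Z-disc crosslinker Actn2 had 710.4, 1046 and 557 and the myosin-binding protein Mybpc3 had 1149, 1635 and 907. Mylk4, a kinase of the myosin light chain kinase family, went against them, with 68.8, 18.0 and 35.4 FPKM. Centred on genes of like length and exon number, the list's median was -0.25.

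Calcium-handling genes divided by place in the cell, on medians not centred by length and exon number. The 40 without a copy lay 20 above and 20 below 0, with 6 higher and 3 lower by 1.5-fold or more. Of 10 genes of the surface membrane, 8 lay below 0, with a median of -0.34, including the L-type calcium channel Cacna1c (31.9, 35.7 and 21.4 FPKM, overlapping Dcp1b) and the sodium-calcium exchanger Slc8a1 (56.5, 41.2 and 24.6, overlapping Gm11096). Of 13 genes of the sarcoplasmic reticulum, 9 lay above 0, with a median of 0.16, including the calcium buffers Casq1 (8.39, 5.59 and 12.1) and Hrc (473, 257 and 394 FPKM). The other 4 lay below 0, and Casq2 was the lowest of them, at a log2 ratio of -0.44. Pde3a, a phosphodiesterase of contractile signalling, had 9.93, 9.73 and 4.98.

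Ion channel genes were mixed, with 8 of 31 (25.8%) higher and 4 (12.9%) lower by 1.5-fold or more and a median of 0.07. Higher were the transient outward channel Kcnd2 (5.88, 1.53 and 3.70 FPKM), the potassium channel modifier Kcnv2 (2.35, 0.871 and 2.38), the atrial potassium channel Kcna5 (9.12, 6.06 and 10.5) and the pacemaker channel Hcn2 (11.1, 4.82 and 9.29). Lower was Kcnq1, of the slow delayed rectifier, at 14.2, 17.3 and 8.41 FPKM. The higher channels had been low in the Egln1Tie2Cre library, whereas Kcnq1 was lowest in the library labelled Egln1/Hif2aTie2Cre.

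Angiogenic ligands and receptors held some of the highest ratios. Of 40 without a copy, 24 lay above 0, 9 (22.5%) were higher and 5 lower by 1.5-fold or more, with a median of 0.18. Apelin and its receptor were both higher: the ligand Apln had 7.34, 2.35 and 7.93 FPKM (3.37-fold higher) and its receptor Aplnr had 18.1, 3.77 and 25.8 (6.85-fold higher). Calcrl, the receptor for adrenomedullin and related peptides, went the other way with 8.51, 27.1 and 8.52 FPKM, 3.18-fold lower. Edn3, an endothelin ligand (0.268, 2.53 and 0.407), and the endothelial nitric oxide synthase Nos3 (10.001, 18.0 and 9.26, overlapping Atg9b) were lower as well. Esm1, a secreted proteoglycan of sprouting endothelium that overlaps Gzmk, had 0.963, 0.388 and 2.71 FPKM. For Aplnr, Apln, Calcrl, Edn3 and Nos3 the library labelled Egln1/Hif2aTie2Cre lay nearer to the floxed level than the Egln1Tie2Cre library did.

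Endothelial markers as a whole were level, while single members differed several-fold in both directions. Of 39 without a copy, 11 (28.2%) were higher and 8 (20.5%) lower by 1.5-fold or more, and the median was 0.02. The pan-endothelial markers Pecam1 (54.7, 67.7 and 63.9 FPKM) and Cdh5 (64.3, 56.9 and 58.1) differed by less than 1.1-fold. Kdr, a VEGF receptor (32.9, 42.9 and 37.2), was 1.15-fold lower, and Tek, the Tie2 gene whose promoter drives the Cre (16.5, 23.6 and 17.5), was 1.35-fold lower. In a whole ventricle, fewer cells of a type and less RNA per cell cannot be told apart.

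The largest higher ratios of the endothelial list belonged to Aqp7, Aqp1, Car4 and Timp4. Aqp1 had 179, 49.4 and 196 FPKM (3.96-fold higher), the glycerol channel Aqp7 had 9.70, 1.42 and 12.5 (8.78-fold) and the carbonic anhydrase Car4 had 16.6, 5.28 and 22.1 (4.19-fold). Timp4, a metalloproteinase inhibitor that overlaps Syn2 and Gm17482, had 27.97, 8.52 and 34.0 FPKM. The lower ones were Vwf, the clotting factor carrier that endothelium stores, with 20.4, 89.2 and 17.8 FPKM (5.003-fold), and Clec14a, a membrane lectin of endothelium, with 6.86, 13.1 and 4.99 (2.63-fold). In both directions the Egln1Tie2Cre library was the one apart from the floxed library.

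The 22 genes of Notch signalling and arteries centred on 0.11, with 4 higher and 2 lower by 1.5-fold or more. The Notch feedback regulator Nrarp had 5.43, 4.77 and 8.63 FPKM and was higher. The Notch ligand Jag1 (4.09, 6.56 and 3.45) and the target Hey1 (5.54, 12.3 and 7.03) were lower. Venous and lymphatic genes together had a median of 0.24 over 9 members, and of 0.30 when centred in that way. All 5 lymphatic genes lay above 0 with a median of 0.29, among them the hyaluronan receptor Lyve1 (8.98, 8.60 and 11.7 FPKM) and the regulator Prox1 (9.33, 6.26 and 8.10). None of the 5 differed by 1.5-fold.

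Smooth muscle and pericyte genes leaned higher, with 15 of 24 above 0, 6 higher and 1 lower by 1.5-fold or more (median 0.14). Vtn, vitronectin, had 14.4, 8.29 and 23.8 FPKM (2.88-fold higher), the G-protein regulator Rgs4 had 7.28, 4.21 and 10.7 (2.55-fold) and smooth muscle actin Acta2 had 64.1, 51.4 and 90.6 (1.76-fold). Mcam, an adhesion molecule, was lower at 18.3, 34.8 and 22.7. The defining markers disagreed among themselves, since Myh11, the smooth muscle myosin, had 12.7, 10.9 and 8.79 FPKM and Rgs5, a pericyte gene, had 136, 147 and 160.1.

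Fibroblast markers also leaned higher. Of 23, 14 lay above 0, 7 (30.4%) were higher and 2 lower by 1.5-fold or more, with a median of 0.17 that became 0.28 after centring by length and exon number. Clec3b, tetranectin, had 46.8, 18.7 and 59.3 FPKM (3.17-fold), the surface glycoproteins Cd248 (5.57, 3.37 and 7.79) and Thy1 (5.48, 2.82 and 6.31) were over 2-fold higher, and dermatopontin Dpt had 48.4, 36.9 and 71.4. Mgp, an inhibitor of calcification, was lower at 230.3, 512 and 263. The identity genes Pdgfra (7.92, 5.91 and 6.75) and Tcf21 (5.71, 6.12 and 6.44) were within 1.2-fold.

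Matricellular genes, which fibroblasts secrete in injured tissue, differed in both directions, more of them lower. Of 50, 19 lay above 0 (background 43.8%) and 31 below. By 1.5-fold or more, 16 (32.0%, background 11.3%) were lower and 9 (18.0%, background 8.37%) higher. The median was -0.20, and -0.07 beside genes of like length and exon number. The thrombospondins Thbs4 (1.27, 9.44 and 1.75 FPKM, 5.40-fold lower) and Comp (1.80, 10.04 and 2.17, 4.63-fold lower) led the lower ones. Ltbp2, which binds microfibrils, had 1.62, 6.18 and 1.05 FPKM, and Timp1, an inhibitor of metalloproteinases that overlaps Syn1, had 1.53, 9.81 and 2.98. Igf2, a growth factor that overlaps Gm49394, was higher at 12.0, 5.04 and 14.4.

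Collagens themselves were near level. Of 34 collagen chains and processing enzymes, 4 were higher and 6 lower by 1.5-fold or more, and the median was -0.06. Serpinh1, the collagen chaperone, was the most different at 98.9, 59.6 and 143 FPKM (2.40-fold higher), and Col15a1, of basement membranes, had 29.1, 23.7 and 39.0. Pcolce2, which speeds procollagen cleavage, was lower at 6.51, 15.2 and 8.73, as was the fibril-associated Col14a1 at 6.76, 10.6 and 6.01. Basement membrane genes had a median of 0.07 over 12 members, and of 0.28 after the same centring, with Lamc1, a laminin chain, at 43.0, 32.5 and 50.9.

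Interferon-induced genes were higher with no exception in direction. All 33 without a copy lay above 0 (background 43.8%), 15 (45.5%) were higher by 1.5-fold or more (background 8.37%), 3 of them by 2-fold or more, and 0 were lower. The median was 0.40, and 0.46 after centring by length and exon number. Rsad2, an antiviral enzyme, had 10.2, 1.98 and 13.4 FPKM (6.75-fold), Ifi44 had 2.63, 0.605 and 4.32 (7.15-fold) and Ifit1, a sensor of viral RNA, had 3.99, 1.42 and 3.36 (2.36-fold). The membrane protein Bst2 had 31.9, 19.8 and 36.7 FPKM (1.85-fold), and the transcription factor Irf7, which overlaps Phrf1, had 10.9, 4.70 and 9.22. The ratios of the 33 ran from 0.00 to 2.27 on the log2 scale. The summed FPKM of all 33 was 336, 239 and 335, so the Egln1Tie2Cre library was the low one.

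Macrophage genes were higher too. Of 23 without a copy, 21 lay above 0, 9 were higher and 0 lower by 1.5-fold or more, with a median of 0.40. The summed FPKM of the 25 myeloid genes, 2 neutrophil genes included, was 309, 327 and 426. Retnla, a resistin-like protein that macrophages secrete in type 2 immune responses, had 6.48, 0.697 and 11.5 FPKM and was 16.5-fold higher. Folr2, a folate receptor of resident macrophages, had 9.27, 3.72 and 10.1 (2.72-fold), and C1qa, a complement subunit that macrophages make, had 42.1, 28.5 and 60.3 (2.12-fold). The defining markers Csf1r (10.2, 10.3 and 10.8 FPKM, overlapping Hmgxb3), Cd68 (6.23, 4.19 and 5.23) and Emr1, the F4/80 gene (2.75, 2.39 and 3.64), differed by 1.53-fold and less, all upward.

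Neutrophil genes were opposite. Of 11 listed, 5 are in the table and 2 passed the filter, and both were lower: S100a8 had 0.489, 22.7 and 3.32 FPKM (6.84-fold) and S100a9, its partner, had 1.47, 31.9 and 6.30 (5.07-fold). Both were still above the floxed library. Of 18 chemokine and cytokine ligands, 14 lay above 0 (background 43.8%) and 6 were at least 2-fold higher, with a median of 0.37. Of 10 receptors, 7 lay below 0 (median -0.19), but 3 were higher and 1 lower by 1.5-fold or more. The monocyte attractants Ccl2 (1.74, 0.452 and 3.58, overlapping Gm17268) and Ccl7 (1.04, 0.461 and 2.92) and the macrophage product Ccl6 (7.90, 10.2 and 23.4) were higher. Ccl8 (1.18, 3.87 and 1.13) and the scavenging receptor Ackr2 (0.638, 5.25 and 0.595) were lower. Class II antigen presentation genes were above 0 in 5 of 5, with a median of 0.43, among them Cd74 (73.4, 69.9 and 96.9 FPKM). The 9 class I genes lay near the background median of -0.05, with 6 below 0 and a median of -0.09. Of them, 1 was higher and 0 lower by 1.5-fold or more. Lymphocyte genes were near the limit of the table, with 3 of 22 listed kept (median -0.24, and -0.30 when centred on like genes), and the T cell marker Cd3e is not in it.

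Of 4 ketone body enzymes, 2 were lower by 1.5-fold or more, Bdh1 and Oxct1. All 4 lay below 0, but Acat1 was level, at a log2 ratio of -0.02. Bdh1, which interconverts the main ketone bodies, had 75.1, 328 and 32.5 FPKM and was 10.1-fold lower. Oxct1, the enzyme that lets heart muscle burn ketones, had 589.5, 917 and 464 FPKM, 1.97-fold lower. In both Bdh1 and Oxct1 the Egln1Tie2Cre library was highest and the library labelled Egln1/Hif2aTie2Cre lowest.

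Other fatty acid genes differed less. Of 47 without a copy, ketone enzymes included, 2 were higher and 5 lower by 1.5-fold or more and the median was -0.10. The 17 oxidation enzymes had a median of 0.17 and 11 lay above 0, with Cpt2, of mitochondrial fatty acid import, at 107, 49.2 and 92.2 FPKM. The 12 regulators had a median of -0.30, with the nuclear receptor Ppara at 13.7, 12.8 and 6.75. Of 18 enzymes of the tricarboxylic acid cycle and pyruvate oxidation, 16 lay below 0 and 3 were lower by 1.5-fold or more, with a median of -0.25 that shrank to -0.08 after centring by length and exon number. Idh2, mitochondrial isocitrate dehydrogenase, had 1107, 1720.2 and 976 FPKM. Respiratory chain genes without a copy had a median of 0.05 over 44, and the 35 with a copy had a median of 0.40.

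**Figure D5:**
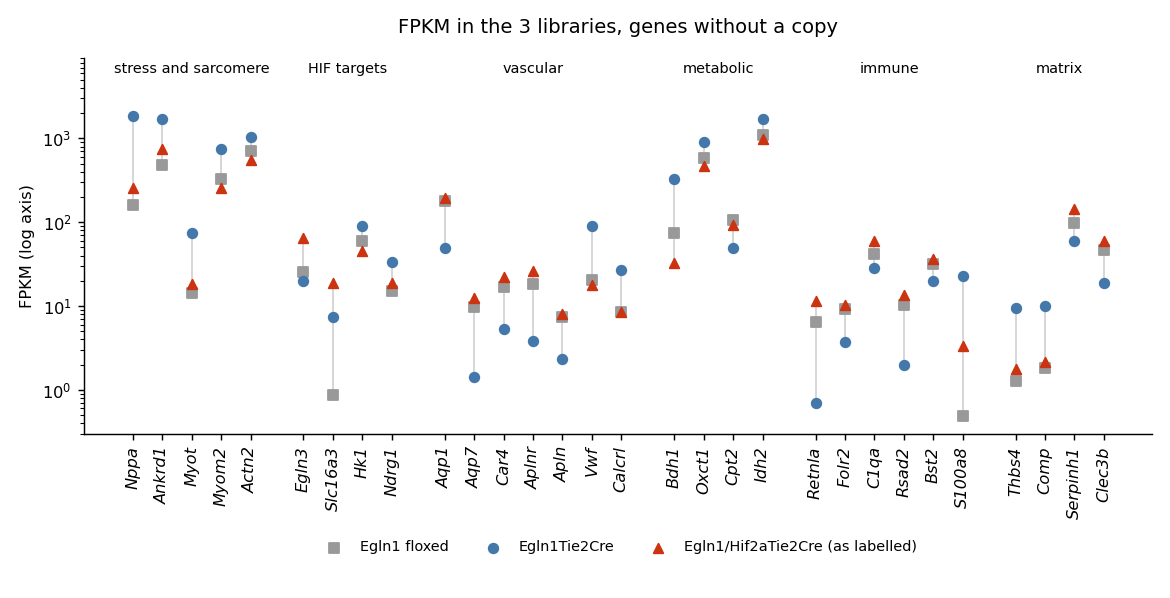
FPKM on a log axis of 30 genes without a copy in the 3 libraries, 1 symbol per library, grouped by role. In most of them the Egln1Tie2Cre library (circles) lies apart from the other 2; Egln3 and Slc16a3 are highest in the library labelled Egln1/Hif2aTie2Cre (triangles), and Bdh1 is lowest there.

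Antioxidant genes were lower in part. Of 20, 8 (40.0%) were at least 1.5-fold lower, 5 of them at least 2-fold, and 0 at least 1.5-fold higher. The median was -0.28, and -0.15, within 1.2-fold, once centred on genes of like length and exon number. The metallothioneins Mt1 (337, 592 and 276 FPKM) and Mt2 (72.8, 99.7 and 44.4), secreted glutathione peroxidase Gpx3 (85.3, 245 and 107) and quinone reductase Nqo1 (34.5, 67.3 and 31.4) were each over 2-fold lower. Nfe2l2 and Keap1, the transcription factor and the sensor of that pathway, named after their values were seen, had 27.5, 31.2 and 31.9 FPKM and 19.6, 17.5 and 18.1. The 4 genes just named as lower were all highest in the Egln1Tie2Cre library.

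Clock genes had a median of -0.24 over 16, with Per2 (7.995, 9.06 and 4.90 FPKM), Per1 (15.8, 23.6 and 14.4) and Cry1 (4.16, 5.85 and 3.54), repressors of the clock, lower and Arntl, its activator, higher (0.433, 0.799 and 1.63). Of 41 heat shock and unfolded protein genes, 4 were higher and 5 lower by 1.5-fold or more, with a median of 0.02. The 15 proliferation genes were level, with 8 above and 7 below 0, a median of 0.01, and 4 higher and 1 lower by 1.5-fold or more. At least 2-fold higher were 3, among them Top2a, of dividing cells (4.15, 0.357 and 1.78 FPKM), and the cell-cycle inhibitor Cdkn1c (12.9, 3.85 and 16.2). Cdk1, a kinase of the cell cycle, was lower (3.83, 2.89 and 1.79). Immediate early and Kruppel-like genes (median 0.07 over 28, with 5 higher and 4 lower by 1.5-fold or more) and prostanoid and S100 genes (0.08 over 17, with 3 and 3) were near level. Of 14 iron and heme genes, 1 was higher and 4 were lower by 1.5-fold or more, with a median of -0.07. Of 4 erythroid and platelet genes without a copy, 3 were lower by 1.5-fold or more and 0 higher, with a median of -0.69.

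Few epicardial genes were measurable, with 4 of 15 listed kept and without a copy. Krt19, an epithelial keratin, had 0.218, 13.7 and 0.169 FPKM and Wt1, the epicardial transcription factor, had 2.25, 10.2 and 1.60, while Tbx18 (0.657, 0.913 and 1.31) and Aldh1a2 (2.06, 2.38 and 3.93) went the other way. Of the mesothelial markers, Upk3b had 0.122, 0.0429 and 0.538 FPKM and Msln is not in the table. Atrial and conduction genes had a median of -0.05 over 13, with 4 higher and 5 lower by 1.5-fold or more. Beside Nppa, the atrial light chain Myl7 (26.3, 74.0 and 41.4 FPKM) was lower and sarcolipin, Sln, was higher (7.85, 10.6 and 16.4). The part of tissue composition in the stress gene values was not tested.

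Outside the lists, ranking coding genes without a copy, overlap or predicted symbol named further genes. The largest higher ratios after Retnla belonged to the amino acid transporter family member Slc38a6 (26.5, 3.56 and 30.0 FPKM, 8.42-fold), Aplnr, Aqp7, Rsad2 and C1qtnf9, a secreted relative of adiponectin (23.9, 6.73 and 33.6, 4.996-fold). Cyp26b1, which degrades retinoic acid, had 3.87, 1.60 and 9.83 FPKM (6.13-fold), and Hmcn2, a large matrix protein, had 6.03, 0.847 and 6.34 (7.49-fold). Among the lower genes after Krt19, Gadl1, a decarboxylase, had 0.190, 10.7 and 0.0529 FPKM, Mctp1, a membrane calcium sensor, had 0.661, 11.2 and 0.263, and Nts, the neurotensin precursor, had 0.946, 10.5 and 0.574. Pttg1, securin, differed in another way, with 97.4, 85.2 and 12.6 FPKM, so the library labelled Egln1/Hif2aTie2Cre was the low one (6.79-fold below the Egln1Tie2Cre library). Fkbp5, a glucocorticoid-induced chaperone, had 16.5, 35.4 and 7.32 FPKM and was 4.83-fold lower.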

How the data were processed

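RNA of the left ventricle was measured in 3 libraries, each a pool of 3 mice of 1 genotype. The authors deposited 3 tables, 1 for each pair of genotypes, with an FPKM value per gene and library, a fold and a q-value per gene. Reads were processed with TopHat2 and Cuffdiff, per the submitters' processing notes; for versions, genome build and annotation, nothing is given in the sources used here. According to the column names, the deposited fold (a ratio of the 2 FPKM values) and the deposited q-value compare 2 libraries. The authors' direction column names the gene as up where the Egln1Tie2Cre library is higher, so ratios were recomputed from the FPKM values as library labelled Egln1/Hif2aTie2Cre over Egln1Tie2Cre library. The FPKM values of a library were the same in its tables (14368 of 14369 genes of the floxed library, and all genes of the other two). 1 deposited column was not used.

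Genes whose FPKM averaged 1 or more were kept, log2 ratios used a pseudocount of 1, and counts used plain folds of 2 and 1.5. Of the 11999 genes kept, 11893 matched the GENCODE annotation of GRCm38, which gave position, class, exon number, length and overlap with other coding genes. A copy was a BLAST 2.17.0 match over at least 50% of the transcript or coding sequence at 90% identity, or over 300 bases at 95%. The counting step was tested on simulated data. Gene lists (37 lists, 1084 symbols, 998 in the table, 889 genes kept) were read over members without a copy. The members and lists were chosen with earlier results of these data known. Genes were named by rule: the oxygen-sensing list, the 15 largest ratios in each direction among coding genes without copy, overlap, predicted symbol or sex linkage with 5 FPKM or more in the higher library, up to 6 members of each list, the 6 largest in each direction among pseudogenes and genes with a copy, and genes without a copy at q of at most 0.05. Cell type markers, sex-linked genes, mitochondrial genes and examples of genes with a copy were named outside that rule, after their values were seen. Alternatives were another fold, pseudocount, filter, centring and definition of a copy. Scripts used Python 3.11.15, pandas 2.3.3, numpy 2.4.6 and matplotlib 3.10.9. Some named genes were left out of the text.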

Additional observations from a re-analysis of the deposited data

How the results depend on the processing

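With 1 pooled library per genotype, neither a test nor a left-out replicate was possible, and the unknown depth leaves the precision of low FPKM values unknown. No paired analysis was possible because each genotype has 1 library. Direction rests on the labels, and Egln1 itself went against the label of 1 library. At 1.5-fold, 1576 of all genes kept were higher and 1480 lower, and the counts were 4 higher for -ps pseudogenes, 79 lower for coding genes with a copy, and 807 higher and 1085 lower for those without. With no filter, 1426 genes were higher and 1109 lower, with 7 higher -ps pseudogenes, 58 higher other pseudogenes, 60 lower coding genes with a copy, and 665 higher and 595 lower without. At a mean FPKM of at least 5, 444 were higher and 352 lower, with 0 higher -ps pseudogenes, 6 higher other pseudogenes, and 84 higher and 147 lower coding genes without a copy. On FPKM + 1, 0 -ps pseudogenes and 14 other pseudogenes were higher, and 115 coding genes were higher and 197 lower among those without a copy. With a copy defined only by a -ps symbol, 53 coding genes were higher and 0 lower among those with one, and 605 were higher among the rest. Centring on coding genes without a copy kept all 10 counts within 1.5 times. The median of the epicardial list, -0.92, was 0.23 with no filter, -2.88 at a mean FPKM of at least 5 and -2.11 over all measured members. The Schwann and neuronal median, 0.30, was -1.71 at a mean FPKM of at least 5, and the erythroid and platelet median, -0.69, was -1.28 with a pseudocount of 0.1. The cause was not tested. Of 242 named genes, 34 moved in size with a pseudocount of 0.1, a setting that cannot change the direction of a ratio.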

Other observations

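Families defined only by their symbol were read over coding genes without a copy, beside the background of all such genes (median -0.05, with 8.37% higher and 11.3% lower by 1.5-fold or more). The 216 Zfp genes, zinc finger proteins that mostly bind DNA, had a median log2 ratio of 0.17, with 29 higher and 10 lower by 1.5-fold or more, and 5 exons at the median. The 33 Psm genes, subunits of the proteasome, had a median of -0.28, with 0 higher and 1 lower by 1.5-fold or more, and 8 exons at the median. The 32 Eif genes, translation initiation factors, had a median of -0.22. The 48 Rab genes, small GTPases of vesicle traffic, had a median of -0.03.

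Several extreme ratios belonged to genes that overlap another coding gene, where reads of the 2 cannot be told apart without strand. Ube2s, a ubiquitin-conjugating enzyme that overlaps Rpl28, had 63.3, 1.05 and 67.4 FPKM in the floxed library, the Egln1Tie2Cre library and the library labelled Egln1/Hif2aTie2Cre. Syn3, a synaptic vesicle protein that overlaps Timp3, had 0.181, 34.4 and 0.238. Over all coding genes without a copy, 65 of 2524 that overlap another were at least 2-fold higher and 92 lower, against 196 and 223 of 7114 that do not. Both groups lay near the shares of all such genes, 2.71% higher and 3.27% lower. Ratios of 2-fold were thus about as common with an overlap as without.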
